A study of Mus musculus with 30 samples.

Results

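The comparison of 2 libraries of satellite cells taken 8 h after muscle injury with 2 libraries of cells from uninjured muscle is described here across all genes. These 4 of the 30 libraries of the series were taken by their labels, and 8 h was picked as the most uniform activated time. Libraries of earlier times after injury were known from an earlier account of these data to lie far apart. For that reason the main fit holds these 4 libraries alone. Agreement between the 8 h libraries is thus not a result. The cells came from hind limb muscle of C57BL/6 mice, and the labels name no transgene, reporter or age for either group. In the 8 h group the hind limb had been injected with BaCl2, a salt that destroys muscle fibres and spares many satellite cells. In the uninjured group there was no injury. Both groups of mice were perfused with the fixative paraformaldehyde ahead of the cell sort, so the RNA was fixed in place and extracted with a kit made for fixed tissue. Polyadenylated RNA was copied to cDNA with SMART-Seq v4, cut with Tn5 transposase and sequenced in pairs of 100 cycles. The labels do not say whether each library is a different animal or how many animals were pooled, so errors and p-values measure the spread between libraries, which may be technical.

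Satellite cells are the stem cells of skeletal muscle. They rest between the fibre and its basement membrane under the transcription factor Pax7 and Notch signalling, and after injury they leave quiescence, induce Myod1, grow, and later divide. Between rest and the first division lies a period of growth in which the cell makes ribosomes, proteins and nucleotides.

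The 8 h libraries held 27.5 and 36.8 M counts and the uninjured libraries 13.5 and 21.4 M counts. The share of counts in models of ribosomal RNA was 5.88% and 3.53% at 8 h, against 45.6% and 34.1% in uninjured cells. Mitochondrially encoded genes took 2.74% and 2.29% at 8 h, against 6.85% and 5.71% in uninjured cells. Pearson's r of log2 CPM between the libraries of a group, over the 2000 most variable genes, was 0.937 at 8 h and 0.844 in uninjured cells. Refitting without the ribosomal RNA models called 11323 genes, against 11326 with them. Levels are given as CPM, counts scaled to a common library size after TMM normalization, given for library 1 and then library 2 of a group. Gene coordinates are on GRCm38.p6. Levels are not divided by gene length, so levels of different genes are not compared. Fold changes are log2 of 8 h over uninjured with their standard error (SE), from a fit of these 4 libraries in edgeR. A gene is called where the Benjamini-Hochberg adjusted p over all genes tested is under 0.05. In bulk RNA, a change in the share of a kind of cell and a change in RNA per cell cannot be told apart.

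Most genes tested were called. Of 18556 genes, 11326 (61%) were called, 5608 (30.2%) higher and 5718 (30.8%) lower at 8 h. The median log2 fold change over all genes tested was -0.03. TMM scaling assumes that most genes do not change and centres the fold changes on them. The even split and the median thus follow in part from the scaling, and each rise or fall is relative to it. With RLE size factors in its place 5787 genes were called higher and 5536 lower. RLE also centres on the typical gene, so it does not test that assumption. At least 4-fold changes were seen in 3025 of the genes called higher and in 3611 of those called lower. At least 16-fold changes were seen in 975 genes called higher and 1091 called lower. The 975 include 505 genes with no count in either uninjured library, and the 1091 include 304 with no count in either 8 h library, and the fitted folds of these depend on the prior count. The groups did not overlap for 11325 of the 11326 genes called, and for 15448 of all 18556 genes tested. For the called genes named below both 8 h libraries lie on the same side of both uninjured libraries. With all 18 libraries of the time course in the fit, where the spread of the other times is pooled, 6756 of 22479 genes (30.1%) were called, 3610 (16.1%) higher and 3146 (14%) lower. Of the 11326 genes, 6567 were called in the same direction in that fit, and 0 in the opposite direction.

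**Figure D1:**
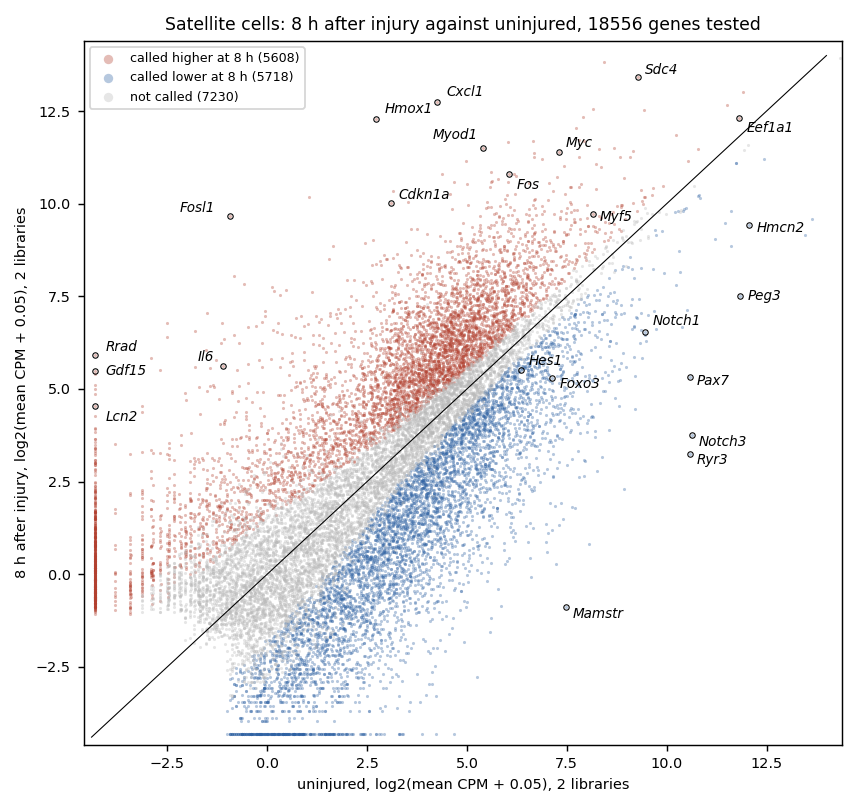
Mean CPM of each gene tested at 8 h (vertical axis) and in uninjured cells (horizontal axis), both as log2(mean CPM + 0.05) over 2 libraries, with genes called higher in red, called lower in blue and not called in grey. Of 18556 genes, 5608 are called higher and lie above the diagonal, and 5718 are called lower and lie below it, and the column at the far left holds genes with no count in uninjured cells.

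Of the 15 genes named for the largest rises, 5 had no count in either uninjured library, so their place in that order rests on the prior count and no fitted change is given for them. Rrad, a small GTPase that binds calcium channel subunits, had 54.3 and 67 CPM at 8 h, against 0 and 0 CPM in uninjured cells. As neither uninjured library held a count, a floor of 3 counts summed over both was used, and on it Rrad stood at least 724-fold higher. Gdf15, a stress cytokine, had 33.4 and 55.5 CPM at 8 h, against 0 and 0 CPM in uninjured cells, and so stood at least 539-fold higher. Procr, the endothelial protein C receptor, had 33.7 and 30.5 CPM at 8 h, against 0 and 0 CPM in uninjured cells, and so stood at least 377-fold higher. Lcn2, an iron-carrier-binding lipocalin of the acute phase, had 31.1 and 15.2 CPM at 8 h, against 0 and 0 CPM in uninjured cells, and so stood at least 263-fold higher. These bounds cover counting error only. One of the gene models with the symbol Myl12b, a myosin light chain, had 75.7 and 8.99 CPM at 8 h, against 0 and 0 CPM in uninjured cells, with 8 h libraries that lay far apart. The other model of that symbol fell, to 28 and 27.1 CPM at 8 h, against 96.5 and 89.2 CPM in uninjured cells. The models overlap, so their reads may be split between them, and neither change is certain.

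Of the named genes counted in both groups, Fosl1 and Hmox1 had the highest fitted changes. Fosl1, an AP-1 subunit, had 854 and 776 CPM at 8 h, against 0.955 and 0 CPM in uninjured cells (log2 fold change 11.26 ± 0.77, adjusted p = 9.2e-05). Hmox1, the haem oxygenase that breaks down haem (ENSMUSG00000005413.8, chr8:75093621-75100589 on the plus strand), had 3229 and 6813 CPM at 8 h, against 8.69 and 4.44 CPM in uninjured cells (log2 fold change 9.63 ± 0.60, adjusted p = 7.6e-05). Both 8 h libraries stood far above both uninjured libraries, and library 2 held more than library 1. Sphk1, a kinase that makes sphingosine 1-phosphate, had 132 and 134 CPM at 8 h, against 0.347 and 0.251 CPM in uninjured cells (log2 fold change 8.84 ± 0.26), with both 8 h libraries close together. Gch1, the first enzyme of tetrahydrobiopterin synthesis, had 55.7 and 132 CPM at 8 h, against 0.174 and 0.293 CPM in uninjured cells (log2 fold change 8.52 ± 0.64). Rgcc, a regulator of the cell cycle induced by complement, had 56.4 and 58.4 CPM at 8 h, against 0 and 0.167 CPM in uninjured cells (log2 fold change 8.95 ± 0.47).

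The 15 genes named for the largest falls stood at 0 to 15.2 CPM in the 8 h libraries, against 19.9 to 1703 CPM in the uninjured libraries. Mamstr, a coactivator of Mef2 factors in muscle, had 0.895 and 0.0825 CPM at 8 h, against 199 and 158 CPM in uninjured cells (log2 fold change -8.59 ± 0.68, adjusted p = 1.4e-04). Ryr3, a calcium release channel, had 9.46 and 9.51 CPM at 8 h, against 1563 and 1481 CPM in uninjured cells (log2 fold change -7.32 ± 0.19, adjusted p = 4.6e-05). Notch3, a Notch receptor (ENSMUSG00000038146.8, chr17:32120820-32166852 on the minus strand), had 15.2 and 11.5 CPM at 8 h, against 1703 and 1463 CPM in uninjured cells (log2 fold change -6.89 ± 0.25, adjusted p = 4.6e-05). For each of these genes the lower uninjured library lay far above the higher 8 h library. Clmn, an actin-binding protein, had 5.23 and 4.45 CPM at 8 h, against 470.4 and 505 CPM in uninjured cells (log2 fold change -6.66 ± 0.20). Frem1, a basement membrane protein, had 1.2 and 2.2 CPM at 8 h, against 238 and 295 CPM in uninjured cells (log2 fold change -7.27 ± 0.34). Trerf1, a zinc finger regulator of transcription, had 0.241 and 0.22 CPM at 8 h, against 29.7 and 30.8 CPM in uninjured cells (log2 fold change -7.01 ± 0.32), and Acsf2, a fatty acid CoA ligase, had 0.619 and 0.385 CPM at 8 h, against 64.6 and 49.9 CPM in uninjured cells (log2 fold change -6.84 ± 0.33). Prr12, a nuclear proline-rich protein, had 1.31 and 1.32 CPM at 8 h, against 108 and 82.3 CPM in uninjured cells (log2 fold change -6.17 ± 0.25). Zfhx2os, a transcript antisense to Zfhx2, had 0.138 and 0.44 CPM at 8 h, against 57.6 and 38.5 CPM in uninjured cells (log2 fold change -7.29 ± 0.49), and without strand its reads cannot be told from those of Zfhx2, which was also called lower at 4.03 and 4.1 CPM at 8 h, against 82.7 and 70.3 CPM in uninjured cells.

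The genes with most reads also differed between the groups. Sdc4, a heparan sulphate proteoglycan on the satellite cell surface, had 10059 and 11709 CPM at 8 h, against 554 and 681 CPM in uninjured cells (log2 fold change 4.14 ± 0.22). Fth1, the heavy chain of ferritin, which stores iron, had 5098 and 6720.1 CPM at 8 h, against 661 and 720.4 CPM in uninjured cells. Ftl1, the light chain, had 4899 and 5476 CPM at 8 h, against 232 and 244 CPM in uninjured cells. In uninjured cells the called genes with most reads included Hmcn2, a hemicentin of the extracellular matrix, at 699.8 and 673 CPM at 8 h, against 4964 and 3596 CPM in uninjured cells. Zbtb20, a zinc finger repressor, had 466 and 463 CPM at 8 h, against 3066 and 3152 CPM in uninjured cells (log2 fold change -2.74 ± 0.16). Gnas, the stimulatory G protein subunit, had 723 and 1066 CPM at 8 h, against 3285 and 2929 CPM in uninjured cells (log2 fold change -1.80 ± 0.23). Lars2, a mitochondrial tRNA synthetase gene known to hold a ribosomal RNA-like repeat, had 557 and 580.0 CPM at 8 h, against 14448 and 8137 CPM in uninjured cells, and it moved with the share of the ribosomal RNA models. The refit without those models left Lars2 out as well. Some genes were among the 10 with most reads in both groups. Actb, beta-actin, which has many processed copies, had 6500.4 and 6527 CPM at 8 h, against 3020.3 and 2846 CPM in uninjured cells. Gpx3, a secreted glutathione peroxidase, had 7940.2 and 8638 CPM at 8 h, against 2983 and 4776 CPM in uninjured cells.

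More of the identity and quiescence genes of satellite cells fell than rose. Of 21 members tested, 12 were called lower and 3 higher, against 30.8% called lower and 30.2% called higher among all genes tested, with a median log2 fold change of -0.65. These shares, and 16.1% higher and 14% lower with all 18 libraries, are the background to the counts of every list below. Pax7 (ENSMUSG00000028736.13, chr4:139737062-139833528 on the minus strand) had 47.9 and 31.5 CPM at 8 h, against 1650.3 and 1399.9 CPM in uninjured cells (log2 fold change -5.27 ± 0.28, adjusted p = 5.1e-05). Sox8, a Sox factor of satellite cells, had 13.9 and 18.2 CPM at 8 h, against 127 and 95.7 CPM in uninjured cells (log2 fold change -2.79 ± 0.23). Pax3, the paralogue of Pax7, was not called, at 10.9 and 10.6 CPM at 8 h, against 10.6 and 10.3 CPM in uninjured cells (adjusted p = 0.90). Six4, a homeobox factor, was at 9.02 and 11.3 CPM at 8 h, against 15.6 and 16.3 CPM in uninjured cells (adjusted p = 0.061). Among surface proteins, Fgfr4, a fibroblast growth factor receptor, had 24.6 and 28.8 CPM at 8 h, against 386 and 455 CPM in uninjured cells (log2 fold change -3.98 ± 0.19). Tenm4, a teneurin, had 48.1 and 62.4 CPM at 8 h, against 404 and 376 CPM in uninjured cells (log2 fold change -2.82 ± 0.19). Cd34, a sialomucin used to sort satellite cells, had 21.7 and 25.8 CPM at 8 h, against 101.2 and 206 CPM in uninjured cells (log2 fold change -2.70 ± 0.35). The laminin receptor chain Itga7 fell to 136 and 171 CPM at 8 h, against 415.8 and 317 CPM in uninjured cells (log2 fold change -1.25 ± 0.20). The BMP inhibitor Chrdl2 fell to 103 and 119.7 CPM at 8 h, against 204 and 237 CPM in uninjured cells (log2 fold change -0.99 ± 0.17). Calcr, the calcitonin receptor that keeps cells quiescent, had 95.4 and 107 CPM at 8 h, against 139 and 162 CPM in uninjured cells (log2 fold change -0.58 ± 0.16). Spry1, an inhibitor of receptor tyrosine kinase signalling needed for return to quiescence, was at 122 and 118 CPM at 8 h, against 126 and 145 CPM in uninjured cells (adjusted p = 0.34). The members that rose were Sdc4, described above, Vcam1 and Rgs16. Vcam1, a cell adhesion molecule, had 763 and 1016 CPM at 8 h, against 129.9 and 115 CPM in uninjured cells (log2 fold change 2.86 ± 0.20). Rgs16, an inhibitor of G protein signalling, had 30.8 and 32.9 CPM at 8 h, against 6.34 and 2.89 CPM in uninjured cells (log2 fold change 2.83 ± 0.39). With all 18 libraries fitted, Calcr (adjusted p = 0.31) was not called. Calls were lost for Calcr without 8 h library 1, 8 h library 2 or uninjured library 2 (adjusted p = 0.092 to 0.19).

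Myod1 and Pax7 moved in opposite directions. Myod1, the myogenic regulatory factor that marks activation (ENSMUSG00000009471.4, chr7:46376474-46379099 on the plus strand), had 2908 and 2876 CPM at 8 h, against 39.2 and 45.7 CPM in uninjured cells (log2 fold change 6.09 ± 0.20, adjusted p = 4.6e-05). Myf5, another myogenic factor, had 824 and 876 CPM at 8 h, against 175 and 390.3 CPM in uninjured cells (log2 fold change 1.59 ± 0.36, adjusted p = 0.0094), and its uninjured libraries differed by more than its 8 h libraries. Myog, the factor of differentiation, had 0.241 and 0.165 CPM at 8 h, against 29.5 and 8.41 CPM in uninjured cells (log2 fold change -6.52 ± 0.79). Of 8 myogenic and Mef2 factors tested, 4 were called higher and 2 lower, and with all 18 libraries in the fit, which called 16.1% of all genes higher and 14% lower, 1 was called higher. In the 18-library fit, Myf5 (adjusted p = 0.098) was not called.

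**Figure D2:**
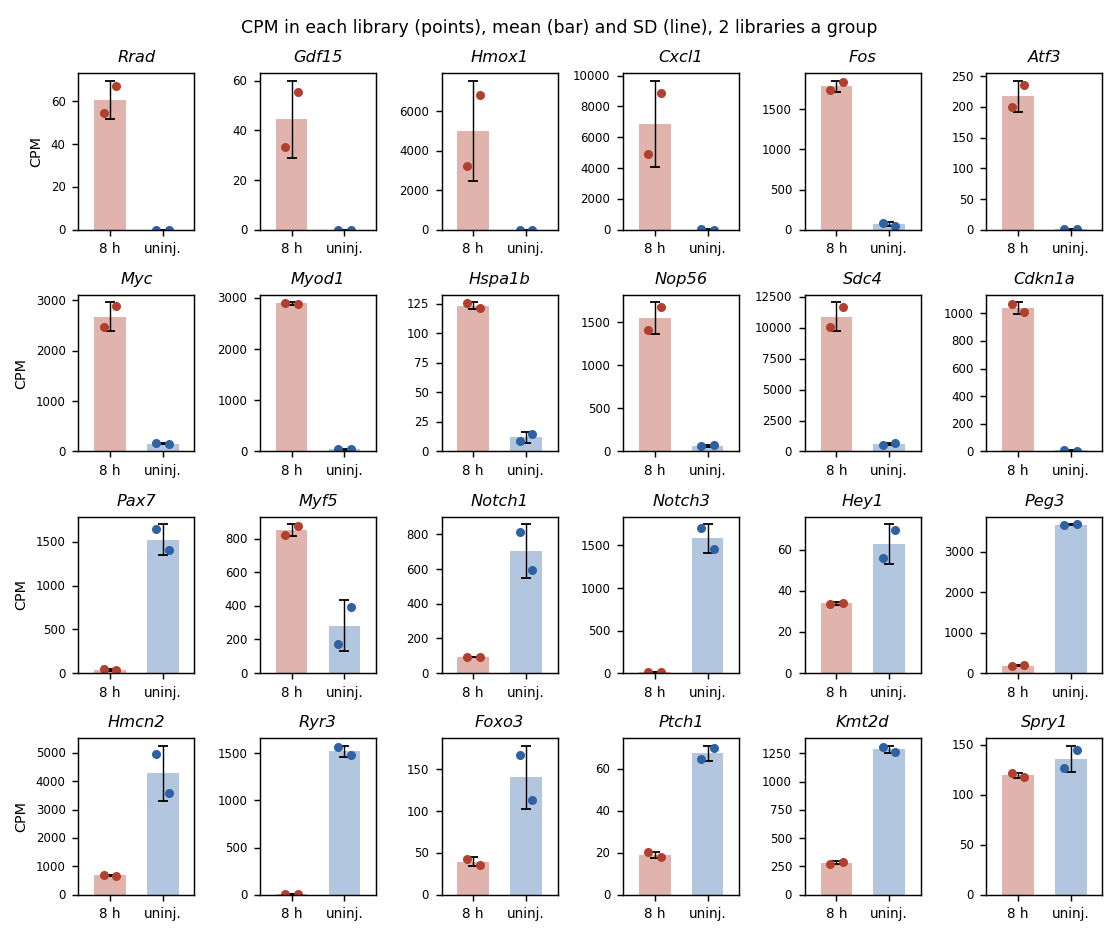
CPM in each library (points), mean (bar) and SD (line) of 24 named genes at 8 h (left, red) and in uninjured cells (right, blue), 2 libraries a group, each panel with its own axis from 0. Myod1 is at 2908 and 2876 CPM at 8 h and Pax7 at 47.9 and 31.5 CPM at 8 h, and Spry1 in the last panel, at 122 and 118 CPM at 8 h, was not called.

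All receptors of the Notch pathway fell, and its DNA-binding factor was not called. The 4 receptors were called lower. Notch3 is given above. Notch1 had 92.8 and 91.5 CPM at 8 h, against 814 and 593 CPM in uninjured cells (log2 fold change -2.93 ± 0.20). Notch2 had 145 and 161 CPM at 8 h, against 481 and 452 CPM in uninjured cells (log2 fold change -1.61 ± 0.15). Rbpj, the DNA-binding factor of the pathway, was at 50.8 and 55.2 CPM at 8 h, against 49.8 and 51.6 CPM in uninjured cells (adjusted p = 0.76). Of the target genes, Heyl had 168 and 143 CPM at 8 h, against 564 and 547 CPM in uninjured cells (log2 fold change -1.84 ± 0.16), and Hey1 had 33.5 and 34.3 CPM at 8 h, against 56 and 69.6 CPM in uninjured cells (log2 fold change -0.89 ± 0.18). Hes1 had 34.5 and 56.6 CPM at 8 h, against 81.3 and 82 CPM in uninjured cells (log2 fold change -0.84 ± 0.25). Among ligands, Jag1 rose, to 72 and 79 CPM at 8 h, against 22.2 and 29.3 CPM in uninjured cells (log2 fold change 1.54 ± 0.20), and Dll1 was at 11 and 11.5 CPM at 8 h, against 20.7 and 14 CPM in uninjured cells (adjusted p = 0.095). Maml3, a coactivator, had 6.75 and 6.68 CPM at 8 h, against 24.2 and 30.9 CPM in uninjured cells (log2 fold change -2.04 ± 0.24). In all, 9 of 19 members tested were called lower, against 30.8% of all genes tested, and 2 higher, against 30.2%. With all 18 libraries in the fit 5 were called lower, against 14% of all genes. The fit of 18 libraries did not call Heyl (adjusted p = 0.089), Hey1 (adjusted p = 0.34) and Hes1 (adjusted p = 0.58). The test was no longer passed for Hey1 without 8 h library 1 or 8 h library 2 (adjusted p = 0.0522 to 0.057) and Hes1 without 8 h library 1, uninjured library 1 or uninjured library 2 (adjusted p = 0.0539 to 0.17).

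Primary cilium and Hedgehog genes fell together. The primary cilium is a sensory antenna that resting satellite cells carry and that Hedgehog signalling passes through. Of 22 members tested, 15 were called lower and 1 higher (median log2 fold change -2.30). Gli2, a transcription factor of the pathway, had 3.03 and 1.87 CPM at 8 h, against 167 and 151 CPM in uninjured cells (log2 fold change -6.03 ± 0.28, adjusted p = 4.6e-05). Its target Gli1 had 2.34 and 2.67 CPM at 8 h, against 16.9 and 20.6 CPM in uninjured cells (log2 fold change -2.91 ± 0.29), and the receptor Ptch1, also a target, had 20.2 and 18.1 CPM at 8 h, against 64.9 and 70.0 CPM in uninjured cells (log2 fold change -1.82 ± 0.18). Cdon, a Hedgehog co-receptor, had 15.2 and 11.9 CPM at 8 h, against 142 and 164 CPM in uninjured cells (log2 fold change -3.50 ± 0.21). Gas1, another co-receptor, had 25.3 and 99.5 CPM at 8 h, against 479.9 and 479 CPM in uninjured cells (log2 fold change -2.94 ± 0.59), with 8 h libraries that lay apart. Among cilium genes, Dzip1, needed to form the cilium, had 0 and 0 CPM at 8 h, against 21.8 and 15.5 CPM in uninjured cells, and so stood at least 383-fold lower. Of Ift140 and Ift172, carriers inside the cilium, Ift140 had 0.998 and 1.4 CPM at 8 h, against 27.4 and 20.05 CPM in uninjured cells (log2 fold change -4.29 ± 0.34). Ift172 had 3.79 and 5.5 CPM at 8 h, against 25.8 and 28.8 CPM in uninjured cells (log2 fold change -2.55 ± 0.28). Evc, a ciliary membrane protein, had 1.62 and 1.29 CPM at 8 h, against 25.8 and 21.2 CPM in uninjured cells (log2 fold change -4.01 ± 0.30). Arl13b, a ciliary GTPase, was the member that rose, to 66.4 and 45.3 CPM at 8 h, against 13.3 and 14.9 CPM in uninjured cells (log2 fold change 1.98 ± 0.25).

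Imprinted growth genes and FoxO factors, both expressed in quiescent cells, also fell. Of 17 imprinted genes tested, 13 were called lower and 1 higher (median -2.29). Peg3, a paternally expressed zinc finger gene, had 173 and 192 CPM at 8 h, against 3659 and 3683 CPM in uninjured cells (log2 fold change -4.33 ± 0.18, adjusted p = 4.6e-05), with libraries of each group close together. Of its neighbours Zim1 and Usp29, Zim1 had 5.13 and 7.4 CPM at 8 h, against 150.0 and 137 CPM in uninjured cells (log2 fold change -4.51 ± 0.24). Usp29 had 0.413 and 0.99 CPM at 8 h, against 19.6 and 16 CPM in uninjured cells (log2 fold change -4.63 ± 0.47). H19, a maternally expressed noncoding RNA, had 1.41 and 1.37 CPM at 8 h, against 48.8 and 31.3 CPM in uninjured cells (log2 fold change -4.84 ± 0.32). Igf2, a growth factor from the same domain, had 37.2 and 39.2 CPM at 8 h, against 116 and 145 CPM in uninjured cells (log2 fold change -1.77 ± 0.18). Mest had 17.5 and 22.5 CPM at 8 h, against 177 and 134 CPM in uninjured cells (log2 fold change -2.95 ± 0.23). Of the genes of the Dlk1 domain, Rian had 56.3 and 40.8 CPM at 8 h, against 295 and 180.1 CPM in uninjured cells (log2 fold change -2.29 ± 0.29). Plagl1, a zinc finger regulator, was the member that rose, at 79.2 and 85.4 CPM at 8 h, against 49.8 and 21.8 CPM in uninjured cells. Of the FoxO list, 8 of 14 members were called lower and 2 higher. The 4 factors were all called lower. Foxo1 had 32.1 and 28.9 CPM at 8 h, against 145 and 141 CPM in uninjured cells (log2 fold change -2.23 ± 0.16), and Foxo3 had 43.1 and 35.9 CPM at 8 h, against 167 and 113 CPM in uninjured cells (log2 fold change -1.83 ± 0.23). Bcl6, a repressor and FoxO target, had 51.6 and 37.1 CPM at 8 h, against 451 and 344 CPM in uninjured cells (log2 fold change -3.16 ± 0.24), and the stress sensor Sesn1 had 11.6 and 12.4 CPM at 8 h, against 91.4 and 71.7 CPM in uninjured cells (log2 fold change -2.76 ± 0.20). Gabarapl1, an autophagy protein, rose to 339.8 and 367 CPM at 8 h, against 52.6 and 69.3 CPM in uninjured cells (log2 fold change 2.53 ± 0.19). Pooling the spread of all 18 libraries, Plagl1 (adjusted p = 0.33) was not called. The call was lost for Plagl1 without 8 h library 1 or 8 h library 2 (adjusted p = 0.056 to 0.077).

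Matrix genes of the niche fell in part. Basement membrane genes were called lower in 10 of 15 cases and higher in 2. Hspg2, which encodes perlecan, had 43.9 and 37.1 CPM at 8 h, against 652 and 524 CPM in uninjured cells (log2 fold change -3.86 ± 0.20, adjusted p = 5.1e-05). Of the laminin chains Lama2 and Lama3, Lama2 had 38.2 and 42.8 CPM at 8 h, against 254 and 244 CPM in uninjured cells (log2 fold change -2.62 ± 0.16). Lama3 had 2.55 and 2.5 CPM at 8 h, against 95 and 156 CPM in uninjured cells (log2 fold change -5.63 ± 0.31). Lamc1, a laminin chain shared by most laminins, had 108 and 105 CPM at 8 h, against 217 and 208 CPM in uninjured cells (log2 fold change -0.996 ± 0.14). Col15a1, a collagen of the basement membrane zone, had 1.31 and 1.59 CPM at 8 h, against 158 and 99.4 CPM in uninjured cells (log2 fold change -6.46 ± 0.33). Of 19 collagens tested, 9 were called lower and 4 higher, and 5 were called lower with all 18 libraries in the fit. Col6a2, a chain of collagen VI, fell to 17.6 and 16.6 CPM at 8 h, against 136 and 116 CPM in uninjured cells (log2 fold change -2.88 ± 0.18). Col3a1, a fibrillar collagen, fell to 114 and 127 CPM at 8 h, against 721 and 508 CPM in uninjured cells (log2 fold change -2.35 ± 0.21). Col4a1, a basement membrane collagen, rose to 555 and 597 CPM at 8 h, against 273 and 183 CPM in uninjured cells (log2 fold change 1.34 ± 0.22). Timp2, a metalloprotease inhibitor, had 33.2 and 27.9 CPM at 8 h, against 253 and 260.0 CPM in uninjured cells (log2 fold change -3.07 ± 0.17), and Timp1 moved the other way, at 41.6 and 41.1 CPM at 8 h, against 1.56 and 1.26 CPM in uninjured cells (log2 fold change 4.90 ± 0.26). Of Adamts1 and Adamts4, proteases of matrix proteoglycans, Adamts1 rose to 383 and 494 CPM at 8 h, against 58.1 and 37 CPM in uninjured cells (log2 fold change 3.21 ± 0.27). Adamts4 rose to 68.9 and 68.2 CPM at 8 h, against 0.955 and 4.23 CPM in uninjured cells (log2 fold change 4.598 ± 0.54). In the list of metalloproteases and Timps, 8 of 15 members were called higher and 5 lower.

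Integrins, which bind matrix proteins, went both ways. Of 13 tested, 5 were called higher and 5 lower. Itga5, the fibronectin receptor chain, had 186 and 213 CPM at 8 h, against 14.9 and 11.5 CPM in uninjured cells (log2 fold change 3.93 ± 0.21), and its partner Itgb1 had 354 and 517 CPM at 8 h, against 69.2 and 78.3 CPM in uninjured cells (log2 fold change 2.56 ± 0.23). Itga7, the laminin receptor chain of muscle, fell, as given above. Of the acetylcholine receptor and synapse genes, 5 of 10 were called lower and 1 higher. Rapsn, which clusters the receptor, had 12.6 and 15.1 CPM at 8 h, against 99.1 and 98.2 CPM in uninjured cells (log2 fold change -2.83 ± 0.18). Of the receptor subunits Chrna1 and Chrnb1, Chrna1 had 7.26 and 7.67 CPM at 8 h, against 43.6 and 37.7 CPM in uninjured cells (log2 fold change -2.44 ± 0.21). Chrnb1 had 107 and 116 CPM at 8 h, against 281 and 281 CPM in uninjured cells (log2 fold change -1.34 ± 0.15). Musk, the kinase that organises the synapse, rose to 464 and 481 CPM at 8 h, against 176 and 243 CPM in uninjured cells (log2 fold change 1.17 ± 0.19). Axon guidance genes were called lower in 12 of 30 cases and higher in 6. Sema6a, a semaphorin, had 39.6 and 34.8 CPM at 8 h, against 446 and 432 CPM in uninjured cells (log2 fold change -3.56 ± 0.17). Rgma, a repulsive guidance molecule and BMP co-receptor, had 20.2 and 23.7 CPM at 8 h, against 216 and 185 CPM in uninjured cells (log2 fold change -3.19 ± 0.18). Of the semaphorin receptors Plxna2 and Plxnd1, Plxna2 had 36.4 and 35.6 CPM at 8 h, against 235 and 188 CPM in uninjured cells (log2 fold change -2.55 ± 0.18). Plxnd1 had 40.8 and 43.1 CPM at 8 h, against 243 and 189.9 CPM in uninjured cells (log2 fold change -2.37 ± 0.18). Efnb2, an ephrin, rose to 56.3 and 54.6 CPM at 8 h, against 0.434 and 1.59 CPM in uninjured cells (log2 fold change 5.60 ± 0.45). Nrp1, a neuropilin, rose to 21.1 and 23.9 CPM at 8 h, against 1.74 and 0.795 CPM in uninjured cells (log2 fold change 4.24 ± 0.42). Musk (adjusted p = 0.08) was not called with all 18 libraries.

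Chromatin genes fell more often than they rose. Of 38 members tested, 21 were called lower and 8 higher (median -0.75). Srcap, an ATPase that places the histone variant H2A.Z, had 58.3 and 56.9 CPM at 8 h, against 736 and 609 CPM in uninjured cells (log2 fold change -3.55 ± 0.18, adjusted p = 4.8e-05). Of the histone H3 lysine methyltransferases Kmt2c and Kmt2d, Kmt2c had 44.5 and 34.2 CPM at 8 h, against 302 and 359 CPM in uninjured cells (log2 fold change -3.07 ± 0.20). Kmt2d had 273 and 293 CPM at 8 h, against 1308 and 1259.7 CPM in uninjured cells (log2 fold change -2.18 ± 0.15). Of Kat6b and Ep300, acetyltransferases, Kat6b had 16.6 and 15 CPM at 8 h, against 167 and 191 CPM in uninjured cells (log2 fold change -3.51 ± 0.18). Ep300 had 57.4 and 50.7 CPM at 8 h, against 202 and 199 CPM in uninjured cells (log2 fold change -1.89 ± 0.16). Tet1, which oxidises methylated DNA, had 1.62 and 1.87 CPM at 8 h, against 75.3 and 46.7 CPM in uninjured cells (log2 fold change -5.12 ± 0.33). Kdm6b, a demethylase of histone H3, rose to 679 and 859.7 CPM at 8 h, against 165 and 156 CPM in uninjured cells (log2 fold change 2.26 ± 0.18). Ezh2, which writes the mark that Kdm6b removes, was at 16.8 and 15 CPM at 8 h, against 16.2 and 13.4 CPM in uninjured cells (adjusted p = 0.73), and its paralogue Ezh1 had 33.1 and 34.2 CPM at 8 h, against 87 and 89.9 CPM in uninjured cells (log2 fold change -1.40 ± 0.16). Exon length, which moves with the direction of calls, is given with the gene classes. With all 18 libraries fitted, Kdm6b (adjusted p = 0.08) and Ezh1 (adjusted p = 0.069) were not called.

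Immediate early genes, which respond to a stimulus without new protein, were high at 8 h. In the AP-1 family, 10 of 11 members tested were called higher and 0 lower (median 4.74). Fos had 1733 and 1832 CPM at 8 h, against 84.8 and 48.7 CPM in uninjured cells (log2 fold change 4.74 ± 0.31, adjusted p = 8.2e-05). Of its partners Junb and Jun, Junb had 1258 and 1543 CPM at 8 h, against 45 and 49.6 CPM in uninjured cells (log2 fold change 4.89 ± 0.20). Jun had 480.1 and 613 CPM at 8 h, against 71.9 and 29.8 CPM in uninjured cells (log2 fold change 3.44 ± 0.43). Jund, another Jun protein, had 59.9 and 68.3 CPM at 8 h, against 19.6 and 25.6 CPM in uninjured cells (log2 fold change 1.498 ± 0.20). Atf3, a stress-induced repressor of the family, had 199 and 235 CPM at 8 h, against 1.48 and 0.586 CPM in uninjured cells (log2 fold change 7.88 ± 0.38, adjusted p = 4.6e-05). Of 22 other immediate early genes tested, 20 were called higher and 1 lower. Of the zinc finger factors Egr1 and Egr2, Egr1 had 2224 and 3267 CPM at 8 h, against 735 and 407 CPM in uninjured cells (log2 fold change 2.27 ± 0.34). Egr2 had 109.7 and 154 CPM at 8 h, against 3.82 and 1.97 CPM in uninjured cells (log2 fold change 5.58 ± 0.37). Btg2, an inhibitor of proliferation, had 508 and 694 CPM at 8 h, against 49.3 and 31.8 CPM in uninjured cells (log2 fold change 3.90 ± 0.29). Nr4a2, an orphan nuclear receptor, had 91 and 86.8 CPM at 8 h, against 1.3 and 1.17 CPM in uninjured cells (log2 fold change 6.18 ± 0.22). Ccn1, a secreted matrix protein, had 1324 and 1759 CPM at 8 h, against 33.7 and 17.3 CPM in uninjured cells (log2 fold change 5.93 ± 0.39). Ier3 had 469 and 575 CPM at 8 h, against 7.47 and 5.02 CPM in uninjured cells (log2 fold change 6.41 ± 0.27), and Plk2, a polo-like kinase, had 302 and 481 CPM at 8 h, against 4.26 and 10.7 CPM in uninjured cells (log2 fold change 5.65 ± 0.48). Srf, the serum response factor that drives many of these genes, was at 8.26 and 7.73 CPM at 8 h, against 7.99 and 7.7 CPM in uninjured cells (adjusted p = 0.94). Zfp36l1, a protein that marks AU-rich RNA for decay, was the member that fell, at 421 and 425 CPM at 8 h, against 1327 and 1215 CPM in uninjured cells (log2 fold change -1.59 ± 0.15). In the 18-library fit, Jund (adjusted p = 0.058) was not called.

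Promoters of these genes were searched for the cAMP response element (CRE, TGACGTCA) and the AP-1 site (TGANTCA) on both strands, in 250 bases before and 50 after each start. The CRE was in 2 of 17 promoters of the other immediate early genes (11.8%), in 0 of 11 of the AP-1 family and in 1.88% of all 27025 promoters. The AP-1 site was in 1 of 17, in 0 of 11 and in 7.93%, and the promoter that held it was that of Zfp36l1, which fell. The lists are short, and the matches are descriptions of sequence only. The 60 bases around the 2 CRE matches, from RefSeq (GRCm38.p6), are shown because both genes rose at 8 h, with the CRE in capitals.
Btg2, chr1:134079288-134079347, minus strand: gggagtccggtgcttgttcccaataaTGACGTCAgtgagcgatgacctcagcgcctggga
Plk2, chr13:110394956-110395015, plus strand: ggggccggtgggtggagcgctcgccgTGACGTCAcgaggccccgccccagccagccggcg

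Feedback inhibitors of MAP kinase signalling rose with these genes. Of 15 tested, 10 were called higher and 2 lower. Of the phosphatases Dusp1 and Dusp10, Dusp1 had 808 and 1167 CPM at 8 h, against 71.1 and 42.9 CPM in uninjured cells (log2 fold change 4.12 ± 0.33). Dusp10 had 214 and 249 CPM at 8 h, against 7.12 and 5.15 CPM in uninjured cells (log2 fold change 5.26 ± 0.24). Dusp6, which acts on ERK, had 78.4 and 75.2 CPM at 8 h, against 6.86 and 1.63 CPM in uninjured cells (log2 fold change 4.28 ± 0.59). Of Spry2 and Spry4, inhibitors upstream of ERK, Spry2 had 426 and 483 CPM at 8 h, against 27.4 and 32.4 CPM in uninjured cells (log2 fold change 3.92 ± 0.18). Spry4 had 51.9 and 70.1 CPM at 8 h, against 10.7 and 6.28 CPM in uninjured cells (log2 fold change 2.87 ± 0.32). Their paralogue Spry1 was not called, as given above, and Spred2 fell, to 13.2 and 14.8 CPM at 8 h, against 85.3 and 113 CPM in uninjured cells (log2 fold change -2.83 ± 0.21).

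Genes of NF-kB signalling rose almost throughout. NF-kB is a family of factors held in the cytoplasm by inhibitors that are themselves its targets. Of 13 members tested, 12 were called higher and 0 lower (median 3.58). Of the inhibitors Nfkbia and Tnfaip3, Nfkbia had 1158 and 1291 CPM at 8 h, against 76.8 and 69.8 CPM in uninjured cells (log2 fold change 4.06 ± 0.17). Tnfaip3 had 134 and 166 CPM at 8 h, against 5.21 and 5.11 CPM in uninjured cells (log2 fold change 4.86 ± 0.21). Of the subunits Nfkb2 and Relb, Nfkb2 had 276 and 332 CPM at 8 h, against 22.4 and 28.1 CPM in uninjured cells (log2 fold change 3.58 ± 0.20). Relb had 112 and 134 CPM at 8 h, against 8.6 and 13.5 CPM in uninjured cells (log2 fold change 3.45 ± 0.26). Chemokines draw leukocytes to the tissue. Of 12 chemokines and other cytokines tested, 10 were called higher and 1 lower, and their median of 5.43 was the highest of the lists. Cxcl1, which attracts neutrophils, had 4909.8 and 8852 CPM at 8 h, against 20.7 and 17.4 CPM in uninjured cells (log2 fold change 8.50 ± 0.41, adjusted p = 4.6e-05). Cxcl2, with the same target, had 759 and 1560.3 CPM at 8 h, against 1.82 and 2.22 CPM in uninjured cells (log2 fold change 9.13 ± 0.49). Of Ccl2 and Ccl7, which attract monocytes, Ccl2 had 92.7 and 148 CPM at 8 h, against 1.82 and 1.38 CPM in uninjured cells (log2 fold change 6.27 ± 0.35). Ccl7 had 71.6 and 104 CPM at 8 h, against 0.347 and 0.67 CPM in uninjured cells (log2 fold change 7.30 ± 0.37). Il33, an alarmin, had 19.5 and 9.16 CPM at 8 h, against 0 and 0 CPM in uninjured cells, and so stood at least 162-fold higher. Cxcl12, which holds cells through Cxcr4, fell to 31.5 and 34.2 CPM at 8 h, against 58 and 93.5 CPM in uninjured cells (log2 fold change -1.21 ± 0.25). The fit of 18 libraries did not call Cxcl12 (adjusted p = 0.0542).

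The Il6 family, its receptors and its feedback inhibitors also rose. Of 22 tested, 15 were called higher and 4 lower, and 7 were called higher with all 18 libraries in the fit. Of the ligands Il6 and Il11, Il6 had 59.6 and 38.6 CPM at 8 h, against 0.695 and 0.126 CPM in uninjured cells (log2 fold change 7.21 ± 0.59). Il11 had 52.5 and 58.1 CPM at 8 h, against 0.347 and 0.377 CPM in uninjured cells (log2 fold change 7.22 ± 0.28). Lif had 46.7 and 102 CPM at 8 h, against 2.52 and 1.8 CPM in uninjured cells (log2 fold change 5.14 ± 0.47). The shared receptor chain Il6st had 185 and 272 CPM at 8 h, against 39.96 and 44 CPM in uninjured cells (log2 fold change 2.44 ± 0.23). Stat3, the transducer, had 731 and 798 CPM at 8 h, against 83.1 and 69.5 CPM in uninjured cells (log2 fold change 3.33 ± 0.18, adjusted p = 5.2e-05). Of Socs3 and Pim1, targets of Stat3, Socs3 had 167 and 223 CPM at 8 h, against 3.65 and 9.42 CPM in uninjured cells (log2 fold change 4.84 ± 0.44). Pim1 had 303 and 351 CPM at 8 h, against 5.12 and 9.29 CPM in uninjured cells (log2 fold change 5.46 ± 0.31). Interferon response genes were tested as well. Of 21 members of the interferon and antigen presentation list, 5 were called higher and 3 lower, and 3 were called higher with all 18 libraries. H2-K1, an MHC class I chain, rose to 523 and 645 CPM at 8 h, against 86.9 and 89.5 CPM in uninjured cells (log2 fold change 2.73 ± 0.18). B2m, its partner, rose to 383 and 415.5 CPM at 8 h, against 51.2 and 90.9 CPM in uninjured cells (log2 fold change 2.49 ± 0.28). Isg15, a typical interferon target, was at 3.82 and 3.77 CPM at 8 h, against 0.695 and 2.64 CPM in uninjured cells (adjusted p = 0.17). Pooling the spread of all 18 libraries, Lif (adjusted p = 0.075) was not called.

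Growth factor ligands and receptors were divided. Of 28 tested, 16 were called higher and 8 lower, and 7 were called higher with all 18 libraries in the fit. Hbegf, a ligand of the EGF receptor, rose to 173 and 216 CPM at 8 h, against 2.69 and 1.55 CPM in uninjured cells (log2 fold change 6.59 ± 0.31). Areg, another ligand, had 7.71 and 11.4 CPM at 8 h, against 0 and 0 CPM in uninjured cells, and so stood at least 115-fold higher. Vegfa, which drives vessel growth, had 65.7 and 68.1 CPM at 8 h, against 18.1 and 14.6 CPM in uninjured cells (log2 fold change 2.04 ± 0.19). Igf1 fell, to 2.31 and 2.8 CPM at 8 h, against 52.9 and 49.97 CPM in uninjured cells (log2 fold change -4.32 ± 0.23), and so did the insulin receptor Insr, to 20.9 and 18.4 CPM at 8 h, against 78.7 and 63.8 CPM in uninjured cells (log2 fold change -1.86 ± 0.19). Plaur, the urokinase receptor, had 323 and 399 CPM at 8 h, against 2.78 and 2.97 CPM in uninjured cells (log2 fold change 6.96 ± 0.22). Met, the receptor of hepatocyte growth factor, had 49.2 and 48.7 CPM at 8 h, against 25.8 and 29.9 CPM in uninjured cells (log2 fold change 0.81 ± 0.18). Vegfa (adjusted p = 0.06) and Met (adjusted p = 0.28) were not called with all 18 libraries.

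Among BMP and TGF-beta genes, the Id targets rose together and ligands and receptors went both ways. Of 28 tested, 17 were called higher and 8 lower, and all 5 targets were called higher. The Id proteins inhibit basic helix-loop-helix factors such as Myod1. Id1 had 263 and 283 CPM at 8 h, against 15.5 and 11 CPM in uninjured cells (log2 fold change 4.38 ± 0.23). Id2 had 412 and 511 CPM at 8 h, against 24.7 and 29.3 CPM in uninjured cells (log2 fold change 4.09 ± 0.20), and Id3 had 1451 and 1569 CPM at 8 h, against 90.5 and 96.3 CPM in uninjured cells (log2 fold change 4.01 ± 0.17). Fst, follistatin, which traps activins and myostatin, had 22.5 and 30.5 CPM at 8 h, against 0.347 and 0.419 CPM in uninjured cells (log2 fold change 6.06 ± 0.37). Bmp4 fell to 88.1 and 76.5 CPM at 8 h, against 173 and 154 CPM in uninjured cells (log2 fold change -0.99 ± 0.16), and the co-receptor Tgfbr3 to 125 and 144 CPM at 8 h, against 328 and 363 CPM in uninjured cells (log2 fold change -1.36 ± 0.16). With all 18 libraries fitted, Bmp4 (adjusted p = 0.13) and Tgfbr3 (adjusted p = 0.088) were not called.

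Most heat shock protein genes rose. These chaperones fold proteins and are induced by heat and other stress. Of 19 members tested, 18 were called higher and 0 lower (median 3.45). Hspa8, the constitutive Hsp70, had 5899.8 and 6149.5 CPM at 8 h, against 306 and 267 CPM in uninjured cells (log2 fold change 4.39 ± 0.19, adjusted p = 4.6e-05). Of the inducible copies Hspa1a and Hspa1b, Hspa1a had 326 and 325 CPM at 8 h, against 15.1 and 28.8 CPM in uninjured cells (log2 fold change 3.87 ± 0.32). Hspa1b had 125 and 121 CPM at 8 h, against 8.77 and 14.9 CPM in uninjured cells (log2 fold change 3.36 ± 0.28). Their sequences are near-identical, so reads may be split between them. Hsph1, an Hsp70 exchange factor, had 610.4 and 578 CPM at 8 h, against 29.97 and 25.9 CPM in uninjured cells (log2 fold change 4.41 ± 0.18), and Hspb1, a small heat shock protein, had 322 and 370.0 CPM at 8 h, against 16.3 and 17.6 CPM in uninjured cells (log2 fold change 4.35 ± 0.18). Hsp90aa1, the inducible Hsp90, had 2461 and 2427 CPM at 8 h, against 229 and 218 CPM in uninjured cells (log2 fold change 3.45 ± 0.16). Its paralogue Hsp90ab1 had 3658 and 3769 CPM at 8 h, against 1289 and 1135 CPM in uninjured cells (log2 fold change 1.61 ± 0.17), and the difference between them was not tested. The factor Hsf1 had 170.1 and 226 CPM at 8 h, against 86 and 82.6 CPM in uninjured cells (log2 fold change 1.23 ± 0.19), and Hsf2 was at 33.7 and 32.6 CPM at 8 h, against 26.7 and 22 CPM in uninjured cells (adjusted p = 0.09). The TRiC chaperonin, which folds actin and tubulin, had 8 of 8 subunits called higher, with Cct8 at 667 and 736 CPM at 8 h, against 57.3 and 65.8 CPM in uninjured cells. In the 18-library fit, Hsf1 (adjusted p = 0.0528) was not called.

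The inner part of the heat shock element (GAANNTTC, a palindrome, so the same on both strands) was in 8 of 13 promoters of heat shock proteins with a RefSeq entry (61.5%), against 7.95% of all 27025 promoters. In the 250 bases before the start it was in 5 of 13 (38.5%), against 6.78%. The 60-base stretches below show it in capitals in 3 members that rose.
Hspb1, chr5:135887776-135887835, plus strand: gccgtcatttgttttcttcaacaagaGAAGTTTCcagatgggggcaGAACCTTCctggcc
Dnaja1, chr4:40722318-40722377, plus strand: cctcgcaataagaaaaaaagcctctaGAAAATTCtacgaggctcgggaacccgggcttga
Hspe1, chr1:55088038-55088097, plus strand: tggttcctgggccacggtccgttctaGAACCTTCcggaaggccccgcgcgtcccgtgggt

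Genes of the stress programmes of the endoplasmic reticulum (ER) and of amino acid supply rose. Of 20 genes of the unfolded protein response tested, 19 were called higher and 1 lower. Hspa5, the ER Hsp70, had 3115 and 3329 CPM at 8 h, against 68.1 and 62.5 CPM in uninjured cells (log2 fold change 5.63 ± 0.19, adjusted p = 4.6e-05). Of Dnajb9 and Manf, proteins induced by misfolding, Dnajb9 had 303 and 351 CPM at 8 h, against 10.3 and 9.12 CPM in uninjured cells (log2 fold change 5.08 ± 0.19). Manf had 317 and 249 CPM at 8 h, against 15.3 and 12.5 CPM in uninjured cells (log2 fold change 4.36 ± 0.22). Xbp1, a factor of the response, had 443 and 406 CPM at 8 h, against 82.1 and 93.8 CPM in uninjured cells (log2 fold change 2.27 ± 0.16), and Creb3l2 fell, to 39.2 and 38 CPM at 8 h, against 135 and 115 CPM in uninjured cells (log2 fold change -1.70 ± 0.16). Of 25 genes of the integrated stress response, 21 were called higher and 1 lower. Atf4, its central factor, had 896 and 989.8 CPM at 8 h, against 37.3 and 51.1 CPM in uninjured cells (log2 fold change 4.41 ± 0.22, adjusted p = 4.9e-05). Ppp1r15a, which ends the response by dephosphorylating eIF2, had 927 and 1190.1 CPM at 8 h, against 13.6 and 9.29 CPM in uninjured cells (log2 fold change 6.55 ± 0.29). Slc3a2, a chain of amino acid transporters, had 1305 and 1845 CPM at 8 h, against 37.4 and 62.1 CPM in uninjured cells (log2 fold change 4.98 ± 0.34). Asns, asparagine synthetase, had 11.4 and 13.7 CPM at 8 h, against 0 and 0 CPM in uninjured cells, and so stood at least 149.5-fold higher. Chac1, which degrades glutathione, had 48.7 and 119.8 CPM at 8 h, against 0 and 0.251 CPM in uninjured cells (log2 fold change 8.94 ± 0.78). Mthfd2, a mitochondrial folate enzyme, had 181 and 265 CPM at 8 h, against 8.86 and 2.18 CPM in uninjured cells (log2 fold change 5.44 ± 0.63). Eif2ak3, the ER kinase of eIF2, fell to 5.78 and 5.66 CPM at 8 h, against 19 and 11.4 CPM in uninjured cells (log2 fold change -1.40 ± 0.33). Calls were lost for Eif2ak3 without 8 h library 1 or 8 h library 2 (adjusted p = 0.06 to 0.064).

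Nrf2 targets and metallothioneins, which counter oxidants and bind metals, rose, with a median of 4.41. Of 18 tested, 16 were called higher and 1 lower. Nfe2l2, which encodes Nrf2, had 457 and 514 CPM at 8 h, against 27.8 and 36.5 CPM in uninjured cells (log2 fold change 3.91 ± 0.21), and its inhibitor Keap1 was at 17.2 and 18.2 CPM at 8 h, against 29.5 and 22.7 CPM in uninjured cells (adjusted p = 0.069). Of Mt1 and Mt2, the metallothioneins, Mt1 had 1977 and 1584 CPM at 8 h, against 24.3 and 17.4 CPM in uninjured cells (log2 fold change 6.42 ± 0.27). Mt2 had 2434 and 2124 CPM at 8 h, against 35.2 and 27.2 CPM in uninjured cells (log2 fold change 6.195 ± 0.23). Txnrd1, thioredoxin reductase, had 879 and 2107 CPM at 8 h, against 36.1 and 27.4 CPM in uninjured cells (log2 fold change 5.56 ± 0.48), and Gclm, a subunit of the enzyme that makes the glutathione precursor, had 173 and 459 CPM at 8 h, against 11.5 and 11.4 CPM in uninjured cells (log2 fold change 4.79 ± 0.49). For both, 8 h library 2 held more than library 1, as for Hmox1. Gclc, the catalytic subunit, had 185 and 186 CPM at 8 h, against 10.3 and 7.83 CPM in uninjured cells (log2 fold change 4.37 ± 0.21), with 8 h libraries close together. Nqo1, a quinone reductase, had 11.8 and 18 CPM at 8 h, against 1.74 and 2.55 CPM in uninjured cells (log2 fold change 2.77 ± 0.38). The fit of 18 libraries did not call Gclm (adjusted p = 0.0536).

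Genes of the p53 pathway, which answers DNA damage and other stress, rose more often than they fell. Of 21 tested, 12 were called higher and 2 lower. Trp53 itself had 455 and 469.9 CPM at 8 h, against 46.1 and 57.8 CPM in uninjured cells (log2 fold change 3.15 ± 0.18). Cdkn1a, the cyclin-dependent kinase inhibitor p21, had 1067 and 1008 CPM at 8 h, against 11 and 5.99 CPM in uninjured cells (log2 fold change 6.97 ± 0.34, adjusted p = 4.7e-05). Of Gadd45b and Gadd45g, Gadd45b had 232 and 259 CPM at 8 h, against 4.78 and 3.1 CPM in uninjured cells (log2 fold change 6.01 ± 0.26). Gadd45g had 93.9 and 117 CPM at 8 h, against 4.17 and 1.46 CPM in uninjured cells (log2 fold change 5.34 ± 0.46). Mdm2, which degrades p53, rose to 95 and 114 CPM at 8 h, against 11.6 and 17.3 CPM in uninjured cells (log2 fold change 2.84 ± 0.25), and Mdm4, its partner, fell to 77.9 and 71.7 CPM at 8 h, against 386 and 466 CPM in uninjured cells (log2 fold change -2.51 ± 0.17). Among the members not called, the cyclin Ccng1 was at 11.4 and 8.91 CPM at 8 h, against 9.64 and 8.33 CPM in uninjured cells (adjusted p = 0.62).

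Genes that make ribosomes rose without exception among those tested. Myc, the factor that drives growth genes, had 2478 and 2877 CPM at 8 h, against 162 and 152 CPM in uninjured cells (log2 fold change 4.09 ± 0.18, adjusted p = 4.6e-05). Its partner Max had 24 and 25.2 CPM at 8 h, against 15.6 and 9.54 CPM in uninjured cells (log2 fold change 0.98 ± 0.29), and the repressor Mxd4 fell to 21.3 and 14.2 CPM at 8 h, against 134 and 82.5 CPM in uninjured cells (log2 fold change -2.61 ± 0.32). Of 11 genes of the Myc and Mxd network, 4 were called higher and 2 lower, and 2 higher with all 18 libraries. All 43 of 43 ribosome biogenesis genes tested were called higher (median 3.17), and 33 were called with all 18 libraries in the fit. Nop56, a core protein of the particles that modify ribosomal RNA, had 1415 and 1679 CPM at 8 h, against 58.1 and 73 CPM in uninjured cells (log2 fold change 4.56 ± 0.21, adjusted p = 4.6e-05). Nolc1, a nucleolar chaperone of those particles, had 559 and 622 CPM at 8 h, against 29.6 and 27.3 CPM in uninjured cells (log2 fold change 4.38 ± 0.17). Of Rrs1 and Ppan, assembly factors of the large subunit, Rrs1 had 343 and 422 CPM at 8 h, against 14.1 and 19.96 CPM in uninjured cells (log2 fold change 4.48 ± 0.25). Ppan had 481 and 557 CPM at 8 h, against 26.5 and 31.3 CPM in uninjured cells (log2 fold change 4.16 ± 0.19). Of Ncl and Npm1, abundant nucleolar proteins, Ncl had 2752 and 2968 CPM at 8 h, against 343 and 290.4 CPM in uninjured cells (log2 fold change 3.17 ± 0.18). Npm1 had 1377 and 1428 CPM at 8 h, against 174 and 210.0 CPM in uninjured cells (log2 fold change 2.87 ± 0.17). The smallest change in the list was that of Noc2l, at 99.5 and 95.6 CPM at 8 h, against 36.6 and 28.9 CPM in uninjured cells (log2 fold change 1.58 ± 0.18). Pooling the spread of all 18 libraries, Max (adjusted p = 0.32) and Noc2l (adjusted p = 0.16) were not called. The test was no longer passed for Max without 8 h library 1 or 8 h library 2 (adjusted p = 0.077 to 0.095).

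RNA polymerase I, which transcribes the large ribosomal RNA, and polymerase III, which makes tRNA and 5S RNA, were counted apart. All 11 of 11 polymerase I genes were called higher (median 2.73), against 5 of 12 polymerase III genes (median 0.45). The difference between these lists was not tested, and with all 18 libraries 8 genes of both together were called higher, against 16 here. Rrn3, the initiation factor of polymerase I, had 182 and 209 CPM at 8 h, against 26.4 and 30.6 CPM in uninjured cells (log2 fold change 2.78 ± 0.18), and Polr1b, a large subunit, had 142 and 177 CPM at 8 h, against 17.1 and 20.01 CPM in uninjured cells (log2 fold change 3.10 ± 0.20). Polr3a, the largest subunit of polymerase III, was at 25.8 and 33.1 CPM at 8 h, against 23.6 and 20.8 CPM in uninjured cells (adjusted p = 0.15), and the initiation factor Brf1 fell, to 35.1 and 39.9 CPM at 8 h, against 71.4 and 63.1 CPM in uninjured cells (log2 fold change -0.84 ± 0.17). Polr3d rose, to 77.7 and 89.1 CPM at 8 h, against 7.73 and 12.9 CPM in uninjured cells (log2 fold change 2.99 ± 0.28). Polr1b (adjusted p = 0.062) was not called with all 18 libraries. The call was lost for Brf1 without 8 h library 1 (adjusted p = 0.076).

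The E-box bound by Myc and Max (CACGTG, the same on both strands) was in 7 of 38 promoters of ribosome biogenesis genes (18.4%), against 7.24% of all promoters. In the 250 bases before the start alone it was in 1 of 38 (2.63%), against 6.05%. The promoter of Nop2, a ribosomal RNA methyltransferase at 392 and 479.5 CPM at 8 h, against 25.6 and 32.7 CPM in uninjured cells, holds the E-box upstream of the start, shown in capitals.
Nop2, chr6:125131797-125131856, plus strand: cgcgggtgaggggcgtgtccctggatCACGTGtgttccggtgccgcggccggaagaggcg

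Genes of translation and its supplies rose as well. All 19 of 19 translation factor genes tested were called higher (median 3.11). Eif4a1, the RNA helicase of initiation, had 1504 and 1950.1 CPM at 8 h, against 65.5 and 84.7 CPM in uninjured cells (log2 fold change 4.52 ± 0.24), and Eif4e, which binds the cap, had 400.3 and 471 CPM at 8 h, against 25.6 and 40.4 CPM in uninjured cells (log2 fold change 3.71 ± 0.26). Its inhibitor Eif4ebp1 rose too, to 290.1 and 412 CPM at 8 h, against 30.6 and 32.2 CPM in uninjured cells (log2 fold change 3.48 ± 0.22). Of 20 cytosolic aminoacyl-tRNA synthetases, 19 were called higher and 0 lower. Of Gars and Nars, for glycine and asparagine, Gars had 221 and 336 CPM at 8 h, against 15.2 and 18.3 CPM in uninjured cells (log2 fold change 4.04 ± 0.27). Nars had 588 and 782 CPM at 8 h, against 52.2 and 44.7 CPM in uninjured cells (log2 fold change 3.82 ± 0.22). Dars, for aspartate, was at 96.2 and 96.1 CPM at 8 h, against 60.8 and 84.7 CPM in uninjured cells (adjusted p = 0.12). All 9 of 9 polyamine genes rose, among them Odc1, ornithine decarboxylase, with 974 and 963 CPM at 8 h, against 43.8 and 48.6 CPM in uninjured cells (log2 fold change 4.39 ± 0.17, adjusted p = 4.6e-05). Amd1 had 272 and 265 CPM at 8 h, against 16.4 and 13 CPM in uninjured cells (log2 fold change 4.20 ± 0.19), and its retrocopy Amd2 may share its reads. Of 19 nucleotide synthesis genes, 16 were called higher and 3 lower. Prps1, which makes the ribose phosphate donor, had 329 and 378 CPM at 8 h, against 4.95 and 9.21 CPM in uninjured cells (log2 fold change 5.60 ± 0.32), and its paralogue Prps2 fell, to 1.51 and 1.76 CPM at 8 h, against 14.42 and 7.28 CPM in uninjured cells (log2 fold change -2.71 ± 0.45). Cad, which starts pyrimidine synthesis, fell to 25.4 and 24.9 CPM at 8 h, against 66.5 and 49.9 CPM in uninjured cells (log2 fold change -1.21 ± 0.20), while enzymes later in that pathway rose. Umps had 132 and 142 CPM at 8 h, against 6.17 and 7.87 CPM in uninjured cells (log2 fold change 4.27 ± 0.20). Ctps had 186 and 257 CPM at 8 h, against 14.6 and 7.79 CPM in uninjured cells (log2 fold change 4.34 ± 0.35).

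Genes of the proteasome, which degrades ubiquitin-marked proteins, rose for every constitutive subunit tested. All 31 of 31 subunit genes tested were called higher (median 2.21), and 31 with all 18 libraries in the fit. Of Psmd2 and Psmd8, subunits of the cap, Psmd2 had 353 and 431 CPM at 8 h, against 38.7 and 36.3 CPM in uninjured cells (log2 fold change 3.39 ± 0.18). Psmd8 had 337 and 369 CPM at 8 h, against 38.4 and 37.8 CPM in uninjured cells (log2 fold change 3.21 ± 0.16). Psmb1, a subunit of the core, had the smallest change, at 186 and 190.3 CPM at 8 h, against 89.4 and 90.1 CPM in uninjured cells (log2 fold change 1.07 ± 0.14). Of the immunoproteasome subunits Psmb8 and Psmb9, which interferon induces, Psmb8 fell to 5.78 and 4.4 CPM at 8 h, against 10.7 and 13.4 CPM in uninjured cells (log2 fold change -1.24 ± 0.31). Psmb9 fell to 0.344 and 0 CPM at 8 h, against 4.08 and 11.8 CPM in uninjured cells (log2 fold change -5.60 ± 1.18). Of 26 lysosome and autophagy genes, 11 were called higher and 6 lower. Sqstm1, the autophagy receptor p62, had 3559 and 4949 CPM at 8 h, against 169 and 257 CPM in uninjured cells (log2 fold change 4.32 ± 0.30), and Ctsl, a lysosomal protease, had 1318 and 1768 CPM at 8 h, against 36.9 and 60.3 CPM in uninjured cells (log2 fold change 4.98 ± 0.32). Tfeb, a factor for lysosome genes, fell to 4.44 and 2.97 CPM at 8 h, against 16.2 and 13.3 CPM in uninjured cells (log2 fold change -1.99 ± 0.33). With all 18 libraries fitted, Psmb8 (adjusted p = 0.086) was not called. Calls were lost for Psmb8 without 8 h library 2 or uninjured library 2 (adjusted p = 0.056 to 0.10).

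Splicing factors rose, with exceptions. Of 27 tested, 22 were called higher and 2 lower. Srsf7, an SR protein, had 821 and 989 CPM at 8 h, against 58.7 and 87 CPM in uninjured cells (log2 fold change 3.63 ± 0.25), and Hnrnpf, a ribonucleoprotein, had 618 and 816 CPM at 8 h, against 28.2 and 31.1 CPM in uninjured cells (log2 fold change 4.59 ± 0.21). Hnrnpl fell, to 100.4 and 158 CPM at 8 h, against 352 and 318 CPM in uninjured cells (log2 fold change -1.38 ± 0.24). Of 16 genes that bind AU-rich elements or decay mRNA, 9 were called higher and 3 lower, and 4 higher with all 18 libraries. Elavl1, which stabilises such mRNA, rose to 348 and 414 CPM at 8 h, against 70.9 and 73.7 CPM in uninjured cells (log2 fold change 2.40 ± 0.17). Xrn1, an exonuclease that degrades mRNA once its cap is removed, fell to 26.8 and 25.3 CPM at 8 h, against 79.1 and 68.6 CPM in uninjured cells (log2 fold change -1.50 ± 0.17). In the 18-library fit, Hnrnpl (adjusted p = 0.065) was not called.

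Genes of glucose uptake and glycolysis rose in part. Of 24 genes tested, 14 were called higher and 2 lower. Hk2, the inducible hexokinase, had 164 and 242 CPM at 8 h, against 1.22 and 1.46 CPM in uninjured cells (log2 fold change 7.21 ± 0.31, adjusted p = 4.6e-05). Of the glucose transporter Slc2a1 and the lactate transporter Slc16a3, Slc2a1 had 181 and 252 CPM at 8 h, against 5.73 and 12.3 CPM in uninjured cells (log2 fold change 4.54 ± 0.39). Slc16a3 had 115 and 72.6 CPM at 8 h, against 4.69 and 4.31 CPM in uninjured cells (log2 fold change 4.39 ± 0.30). Of the lactate dehydrogenase chains, Ldha rose to 792 and 748 CPM at 8 h, against 112 and 84.1 CPM in uninjured cells (log2 fold change 2.97 ± 0.20). Ldhb fell to 7.54 and 6.49 CPM at 8 h, against 21.3 and 24 CPM in uninjured cells (log2 fold change -1.69 ± 0.24). Pfkm, the muscle form of phosphofructokinase, fell to 1.65 and 1.76 CPM at 8 h, against 18.3 and 10.8 CPM in uninjured cells (log2 fold change -3.08 ± 0.38), and the liver form Pfkl rose to 50.8 and 48.6 CPM at 8 h, against 7.21 and 6.03 CPM in uninjured cells (log2 fold change 2.92 ± 0.21). Gapdh, which has many processed copies that can share its reads, was at 44.2 and 46.6 CPM at 8 h, against 41 and 32.3 CPM in uninjured cells (adjusted p = 0.20).

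Mitochondrial genes differed in their counts by role. Import and chaperone genes were called higher in 17 of 19 cases and lower in 0. Timm23, a channel of the inner membrane, had 294 and 315 CPM at 8 h, against 13.6 and 15.9 CPM in uninjured cells (log2 fold change 4.36 ± 0.18), and Tomm40, the channel of the outer membrane, had 319 and 352 CPM at 8 h, against 33.5 and 33.5 CPM in uninjured cells (log2 fold change 3.32 ± 0.16). Nuclear genes of the respiratory chain were called higher in 17 of 29 cases and lower in 1, with 11 higher when all 18 libraries were in the fit. Of the genes of complex I, 3 of 11 were called higher, and of those of the other complexes 14 of 18, a difference that was not tested. Cycs, cytochrome c, had 257 and 260.0 CPM at 8 h, against 23.5 and 24.3 CPM in uninjured cells (log2 fold change 3.44 ± 0.16), and Atp5b, an ATP synthase subunit, had 1316 and 1394 CPM at 8 h, against 323 and 279 CPM in uninjured cells (log2 fold change 2.17 ± 0.16). Ndufv1, a complex I subunit, was at 96.1 and 95.2 CPM at 8 h, against 73.4 and 76.7 CPM in uninjured cells (adjusted p = 0.079). Of 33 mitochondrially encoded genes tested, 15 were called lower and 0 higher, beside the fall in their share of all counts given above. Fatty acid oxidation genes were called higher in 4 of 20 cases and lower in 6, and with all 18 libraries lower in 3. Acadl, which acts on long chains, had 90.0 and 102 CPM at 8 h, against 30.1 and 23.4 CPM in uninjured cells (log2 fold change 1.85 ± 0.20), while Acads, for short chains, had 2.79 and 2.31 CPM at 8 h, against 14.2 and 13.7 CPM in uninjured cells (log2 fold change -2.45 ± 0.30).

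Cell division genes were for the most part not called. Of 18 mitotic genes tested, 2 were called higher and 1 lower. Cdk1, the mitotic kinase, was at 0 and 0.577 CPM at 8 h, against 1.13 and 0.209 CPM in uninjured cells (adjusted p = 0.56). Aurka, a kinase of the spindle poles, rose to 2.89 and 3.46 CPM at 8 h, against 0 and 0 CPM in uninjured cells, and so stood at least 37.9-fold higher. Cdc20, an activator of the anaphase complex, rose to 3.2 and 4.84 CPM at 8 h, against 0 and 0.419 CPM in uninjured cells (log2 fold change 3.97 ± 0.94). Mki67, a proliferation marker, fell, to 0.413 and 1.13 CPM at 8 h, against 16.9 and 3.85 CPM in uninjured cells (log2 fold change -3.70 ± 0.85), with uninjured libraries that lay apart. Of 23 replication genes, 7 were called higher and 3 lower. Pcna, the sliding clamp, had 231 and 222 CPM at 8 h, against 16.8 and 13.3 CPM in uninjured cells (log2 fold change 3.92 ± 0.19, adjusted p = 4.7e-05), and Rrm2, a ribonucleotide reductase subunit, had 35 and 28.7 CPM at 8 h, against 2.43 and 2.93 CPM in uninjured cells (log2 fold change 3.55 ± 0.27). Pold1, a polymerase subunit, fell to 2.0 and 2.8 CPM at 8 h, against 29.97 and 25.6 CPM in uninjured cells (log2 fold change -3.52 ± 0.29). The test was no longer passed for Cdc20 without 8 h library 2 (adjusted p = 0.065).

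The D-type cyclins, which drive G1, went both ways. Of Ccnd1 and Ccnd3, Ccnd1 had 19.9 and 13.7 CPM at 8 h, against 145 and 71.4 CPM in uninjured cells (log2 fold change -2.68 ± 0.38). Ccnd3 had 46.7 and 35.6 CPM at 8 h, against 415.6 and 328 CPM in uninjured cells (log2 fold change -3.17 ± 0.22). Ccnd2 had 14.1 and 5.66 CPM at 8 h, against 1.82 and 1.84 CPM in uninjured cells (log2 fold change 2.43 ± 0.53). Of the kinases Cdk4 and Cdk6, Cdk4 rose to 226 and 219 CPM at 8 h, against 88.5 and 66.6 CPM in uninjured cells (log2 fold change 1.52 ± 0.19). Cdk6 rose to 46.1 and 39 CPM at 8 h, against 18.4 and 11.1 CPM in uninjured cells (log2 fold change 1.54 ± 0.29). In the list of G1 cyclins, kinases and E2f factors, 6 of 13 were called higher and 4 lower. Among CDK inhibitors, Cdkn1a rose, as given above, while Cdkn1c (p57) and Cdkn1b (p27) fell. Cdkn1c had 4.3 and 7.31 CPM at 8 h, against 68.1 and 19.9 CPM in uninjured cells (log2 fold change -2.91 ± 0.61). Cdkn1b had 34.6 and 29.1 CPM at 8 h, against 45.6 and 52.1 CPM in uninjured cells (log2 fold change -0.62 ± 0.19). Of that list and the pocket proteins, 4 of 9 were called lower and 2 higher, and 1 lower with all 18 libraries. The fit of 18 libraries did not call Cdkn1b (adjusted p = 0.25). The call was lost for Ccnd2 without 8 h library 1 (adjusted p = 0.064) and Cdkn1b without 8 h library 1, 8 h library 2 or uninjured library 2 (adjusted p = 0.089 to 0.24).

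Wnt and Hippo genes showed no common direction. Of 22 Wnt genes, 8 were called higher and 7 lower, and 4 higher with all 18 libraries. Ctnnb1, beta-catenin, had 211 and 276 CPM at 8 h, against 70.0 and 79.3 CPM in uninjured cells (log2 fold change 1.70 ± 0.19), and its partner Tcf7l2 had 86.1 and 71.3 CPM at 8 h, against 384 and 375 CPM in uninjured cells (log2 fold change -2.27 ± 0.17). The co-receptor Lrp5 fell to 3.17 and 3.11 CPM at 8 h, against 38.3 and 29.5 CPM in uninjured cells (log2 fold change -3.43 ± 0.26), while Lrp6 was at 107 and 91.1 CPM at 8 h, against 77.5 and 91.1 CPM in uninjured cells (adjusted p = 0.28). Axin2, a target of the pathway, had 1.1 and 1.4 CPM at 8 h, against 9.47 and 6.32 CPM in uninjured cells (log2 fold change -2.64 ± 0.43). Of 22 Hippo genes, 7 were called higher and 7 lower, and 4 higher with all 18 libraries. Of the targets, Ccn1 is given above, and Ccn2 rose to 1025 and 976 CPM at 8 h, against 45.5 and 19.8 CPM in uninjured cells (log2 fold change 4.95 ± 0.42). The targets did not all rise, as the list also holds a target called lower and a target not called. Yap1, the coactivator, was at 53.6 and 44 CPM at 8 h, against 33.4 and 36 CPM in uninjured cells (adjusted p = 0.057), and its paralogue Wwtr1 (Taz) had 133 and 142 CPM at 8 h, against 37.9 and 40.5 CPM in uninjured cells (log2 fold change 1.81 ± 0.16). Actin genes and targets of serum response factor were called higher in 17 of 28 cases and lower in 4. Tpm3, a tropomyosin, had 598 and 675 CPM at 8 h, against 69.2 and 67 CPM in uninjured cells (log2 fold change 3.22 ± 0.16), and Tubb6, a beta-tubulin, had 285 and 329.9 CPM at 8 h, against 12.9 and 7.41 CPM in uninjured cells (log2 fold change 4.95 ± 0.31), while Flna, filamin A, was at 229 and 195 CPM at 8 h, against 192 and 165 CPM in uninjured cells (adjusted p = 0.24).

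Genes of the circadian clock went both ways. Of 18 tested, 9 were called higher and 7 lower, and 5 higher with all 18 libraries. Arntl, the activator Bmal1, had 117 and 161 CPM at 8 h, against 2.69 and 15.1 CPM in uninjured cells (log2 fold change 3.90 ± 0.67). Of Dbp and Per3, which Arntl drives and which peak at another phase, Dbp had 2.58 and 2.2 CPM at 8 h, against 119 and 58.2 CPM in uninjured cells (log2 fold change -5.21 ± 0.41). Per3 had 3.06 and 4.37 CPM at 8 h, against 225 and 99.6 CPM in uninjured cells (log2 fold change -5.44 ± 0.47). Of Cry1 and Nfil3, Cry1 rose to 169.8 and 170.0 CPM at 8 h, against 6.86 and 2.34 CPM in uninjured cells (log2 fold change 5.30 ± 0.47). Nfil3 rose to 98.7 and 118 CPM at 8 h, against 2.17 and 1.8 CPM in uninjured cells (log2 fold change 5.79 ± 0.23). Per1 fell, to 114 and 94.1 CPM at 8 h, against 698 and 459 CPM in uninjured cells (log2 fold change -2.47 ± 0.25), and Per2 was at 20.2 and 25.8 CPM at 8 h, against 34.2 and 11.9 CPM in uninjured cells (adjusted p = 0.98), with uninjured libraries that lay apart. The labels give no hour of day at which the samples were taken, so time of day and injury cannot be told apart for these genes.

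**Figure D3:**
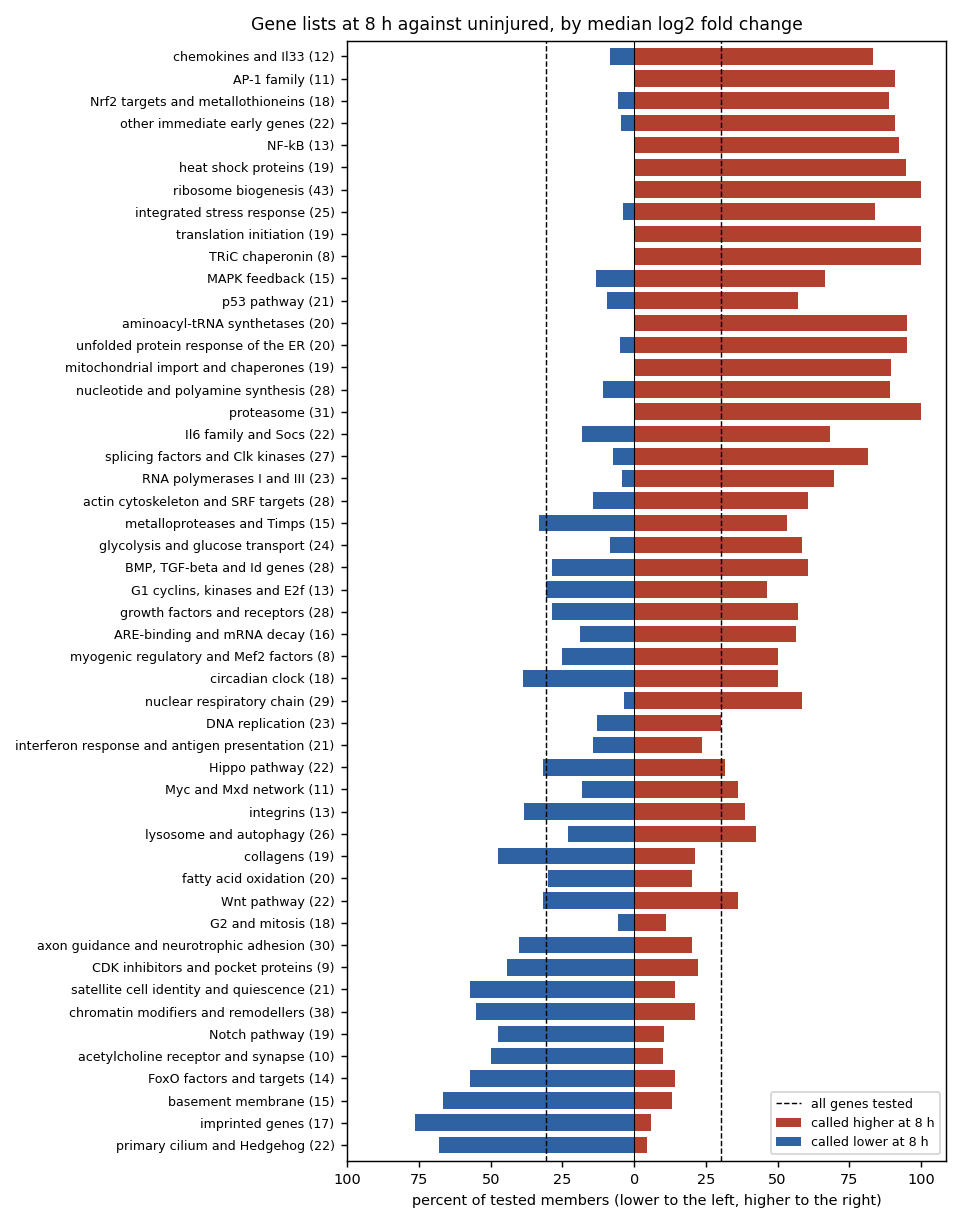
Percent of tested members called higher (red, right) and lower (blue, left) at 8 h for each gene list, ordered by the median log2 fold change of the list, with the number of members tested in brackets. Dashed lines mark the shares over all genes tested (30.2% higher, 30.8% lower), and bars reach 100% for ribosome biogenesis, translation initiation, the TRiC chaperonin and the proteasome.

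Kinds of gene differed in their direction. Of 13198 protein-coding genes tested, 35.3% were called higher and 30.8% lower. Of 1837 long noncoding RNA genes, 12.1% were called higher and 41.5% lower, and of 1204 models still to be tested experimentally, 10.6% higher and 40.9% lower. Pseudogenes went the other way, with 26.7% higher and 14.8% lower of 2069. Protein-coding genes were also ordered by the length of their exons. In the shortest of 5 equal bins, with a median of 1758 bases, 36.8% were called higher and 26.2% lower. In the longest bin, with a median of 9964 bases, 27.4% were called higher and 40.8% lower. With offsets that remove the smooth dependence on exon length from each library, 11295 genes were called, and the median of the chromatin list was -0.39, against -0.75 without them. Calls also depended on level. Ordered by their mean CPM over both groups into 5 equal bins, protein-coding genes of the lowest bin, with a median of 1.01 CPM, were called higher in 21.6% and lower in 22.5% of cases. In the next bin, with a median of 5.44 CPM, 15.8% were called higher and 45.1% lower, and in the highest bin, with a median of 105 CPM, 63.9% higher and 21.4% lower. The shares over all genes set beside the lists are not matched for level. These are descriptions across genes, which are not replicates.

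**Figure D4:**
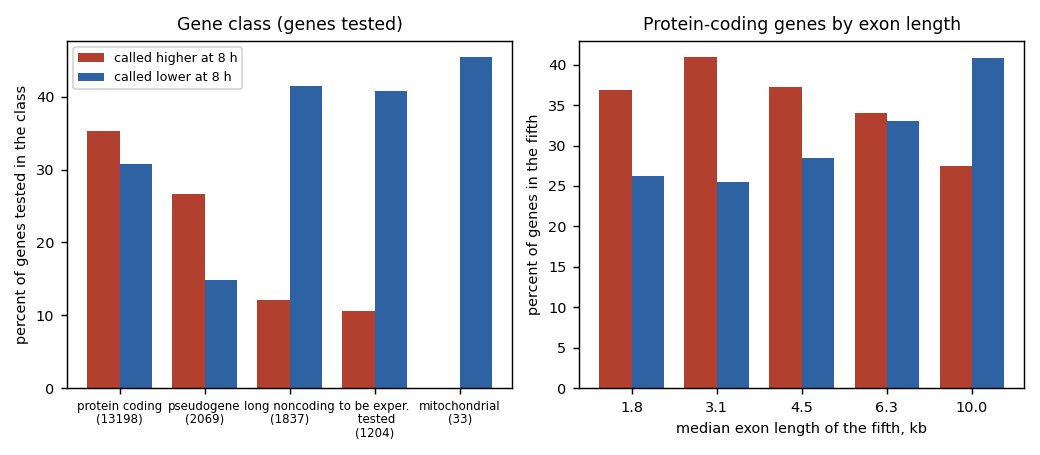
Percent of genes called higher (red) and lower (blue) at 8 h, by gene class with the number tested (left) and, for protein-coding genes, by 5 equal bins of exon length labelled by their median in kb (right). Higher calls outnumber lower calls among protein-coding genes and pseudogenes, and lower calls outnumber higher ones in the other classes and in the longest bin.

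The markers of other cells of muscle were counted in the same libraries. Defining leukocyte markers were near 0, with Ptprc at 0.723 and 0.522 CPM at 8 h, against 0.261 and 0 CPM in uninjured cells. Adgre1 was at 0 and 0.44 CPM at 8 h, against 0 and 0 CPM in uninjured cells, and Ly6g was at 0 and 0.165 CPM at 8 h, against 0 and 0 CPM in uninjured cells. Summed neutrophil markers stood at 24 and 21.6 CPM at 8 h, against 2.52 and 2.51 CPM in uninjured cells, and those of macrophages at 37.4 and 36.6 CPM at 8 h, against 5.47 and 3.77 CPM in uninjured cells. Of the neutrophil list, 4 of 5 members tested were called higher, with S100a8 at 13.6 and 11.4 CPM at 8 h, against 1.13 and 0.795 CPM in uninjured cells, and 2 with all 18 libraries in the fit. Of the macrophage list, 4 of 6 were called higher, with Cd14 at 20.4 and 16.2 CPM at 8 h, against 0.608 and 0.67 CPM in uninjured cells. In the fit of all 18 libraries 1, Fcgr3, was called, and not Cd14 (adjusted p = 0.078), Cd68 (adjusted p = 0.12) or Lyz2 (adjusted p = 0.21). Of the 8 lymphocyte markers 1 was tested, and it was not called. Endothelial markers summed to 219 and 156 CPM at 8 h, against 61.2 and 85.6 CPM in uninjured cells, with 6 of 13 called higher. Without Tek, which was not called, the sum was 156 and 61.9 CPM at 8 h, against 33.4 and 32.2 CPM in uninjured cells. Pecam1 was at 17.4 and 5.91 CPM at 8 h, against 0.521 and 3.18 CPM in uninjured cells and Cldn5 at 38.4 and 11.4 CPM at 8 h, against 0.174 and 1.26 CPM in uninjured cells, and 8 h library 1 held more of both than library 2. Tenocyte markers summed to 145 and 74.1 CPM at 8 h, against 11.5 and 13 CPM in uninjured cells, with 5 of 7 called higher and 1 lower. Fibroblast markers summed to 452 and 353 CPM at 8 h, against 929 and 700.4 CPM in uninjured cells, with 5 of 11 called higher and 3 lower. Col3a1, given above, made up most of that sum in uninjured cells, and without it the sum was 338 and 226 CPM at 8 h, against 208 and 193 CPM in uninjured cells, higher at 8 h. Their defining marker Pdgfra was at 1.2 and 0.687 CPM at 8 h, against 0 and 0 CPM in uninjured cells, and Dcn was at 152 and 98.7 CPM at 8 h, against 15.4 and 7.53 CPM in uninjured cells. Besides Col3a1 and Dcn, the fibroblast markers together did not stand higher at 8 h. Pericyte and smooth muscle markers summed to 766 and 871 CPM at 8 h, against 2124 and 1744 CPM in uninjured cells, with 5 of 12 called higher and 5 lower. Of that sum, Des made up 659 and 785 CPM at 8 h, against 243 and 173 CPM in uninjured cells, and Notch3, given above, most of the rest in uninjured cells. Without Notch3 the sum was 750.5 and 859.9 CPM at 8 h, against 421 and 281 CPM in uninjured cells, higher at 8 h. Most of that remainder was Des, and the other members of the list together stood lower at 8 h. In the fit of all 18 libraries 2 of that list were called lower. Fibre genes summed to 144 and 84.4 CPM at 8 h, against 380.0 and 247 CPM in uninjured cells, with 6 of 16 called higher and 3 lower. Actn3 was at 15.8 and 18.1 CPM at 8 h, against 200.5 and 147 CPM in uninjured cells, and Ckm was at 14.35 and 8.91 CPM at 8 h, against 0.695 and 0.126 CPM in uninjured cells. Without Actn3 the sum of fibre genes was 128 and 66.3 CPM at 8 h, against 179.5 and 100.2 CPM in uninjured cells. Most of that remainder in uninjured cells was Atp2a1, at 14 and 10.4 CPM at 8 h, against 135.9 and 70.5 CPM in uninjured cells. The other fibre genes together stood higher at 8 h. Schwann markers summed to 137 and 130.1 CPM at 8 h, against 114 and 124 CPM in uninjured cells and erythroid markers to 72.8 and 38.8 CPM at 8 h, against 57.2 and 61.4 CPM in uninjured cells, with 1 of 9 and 0 of 5 called higher. Leaving out 1 of the 4 libraries moved several of these counts. Without 8 h library 1, 2 members each of the neutrophil, pericyte, fibroblast and fibre lists and 3 of the tenocyte list were called higher. Without 8 h library 2, 2 neutrophil markers were called higher and 3 pericyte markers lower. Without uninjured library 1, 9 fibre genes were called higher and 3 pericyte markers lower, and without uninjured library 2, 9 fibre genes were called higher. The call of Pecam1 was lost without 8 h library 1 or uninjured library 1 (adjusted p = 0.063 to 0.19), and that of Pdgfra without 8 h library 1 or 8 h library 2 (adjusted p = 0.0538 to 0.10). The part of these cells in the changes given above was not tested. Of the satellite cell markers, Pax7, Calcr, Itga7 and Cdh15 were detected in all 4 libraries, Cdh15 at 34.1 and 25.6 CPM at 8 h, against 135 and 114 CPM in uninjured cells. Cdh15 was called lower (log2 fold change -2.06 ± 0.21), but not in the fit of all 18 libraries (adjusted p = 0.10).

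The next time, 16 h, was compared in the fit of all 18 libraries. Of 22479 genes, 2 (0.0089%) were called between 8 h and 16 h, 1 (0.00445%) higher and 1 (0.00445%) lower at 8 h, and 2299 had an unadjusted p under 0.05. DESeq2 called 440 and a fit of the 4 libraries of these times alone called 1102. Both genes are named after their values were seen. Map1b, a microtubule-associated protein, had 1274 and 997 CPM at 8 h, against 203 and 170.3 CPM at 16 h (log2 fold change 2.60 ± 0.33, adjusted p = 0.0497). Dnph1, a nucleotide hydrolase, had 5.73 and 5.23 CPM at 8 h, against 45.7 and 48 CPM at 16 h (log2 fold change -3.10 ± 0.41, adjusted p = 0.0497). For Hmox1 the log2 fold change of 8 h over 16 h was 2.69 ± 2.12 (adjusted p = 0.69), for Cxcl1 2.91 ± 1.35 (adjusted p = 0.49), for Pax7 -2.11 ± 1.25 (adjusted p = 0.58), and for Myod1 0.72 ± 1.51 (adjusted p = 0.91). For these 4 genes the adjusted p missed the threshold, and a p that misses the threshold does not show that 8 h and 16 h are alike.

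Levels scaled over all 18 libraries place 8 h in the time course. Myod1 had 42.3 and 51.3 CPM in uninjured cells. At 4 h it had 87.8 and 2174 CPM. The 8 h libraries held 3315 and 3197 CPM, and the 16 h libraries 2533 and 1423 CPM. For Myod1 the libraries of 4 h lay far apart and those of 8 h close together. As 8 h was picked for its uniformity, this closeness is not a result. Pax7 had 1781 and 1569.7 CPM in uninjured cells. At 4 h it had 987 and 69.9 CPM. The 8 h libraries held 54.6 and 35 CPM, and the 16 h libraries 84.9 and 301 CPM. Hmox1 had 9.37 and 4.97 CPM in uninjured cells. At 4 h it had 19.2 and 1034 CPM. The 8 h libraries held 3680.3 and 7571 CPM, and the 16 h libraries 1628 and 115 CPM. For Hmox1 both libraries of 8 h lay above both of every other time. For Pax7 both lay below those of every other time except 1 library of 32 h.

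**Figure D5:**
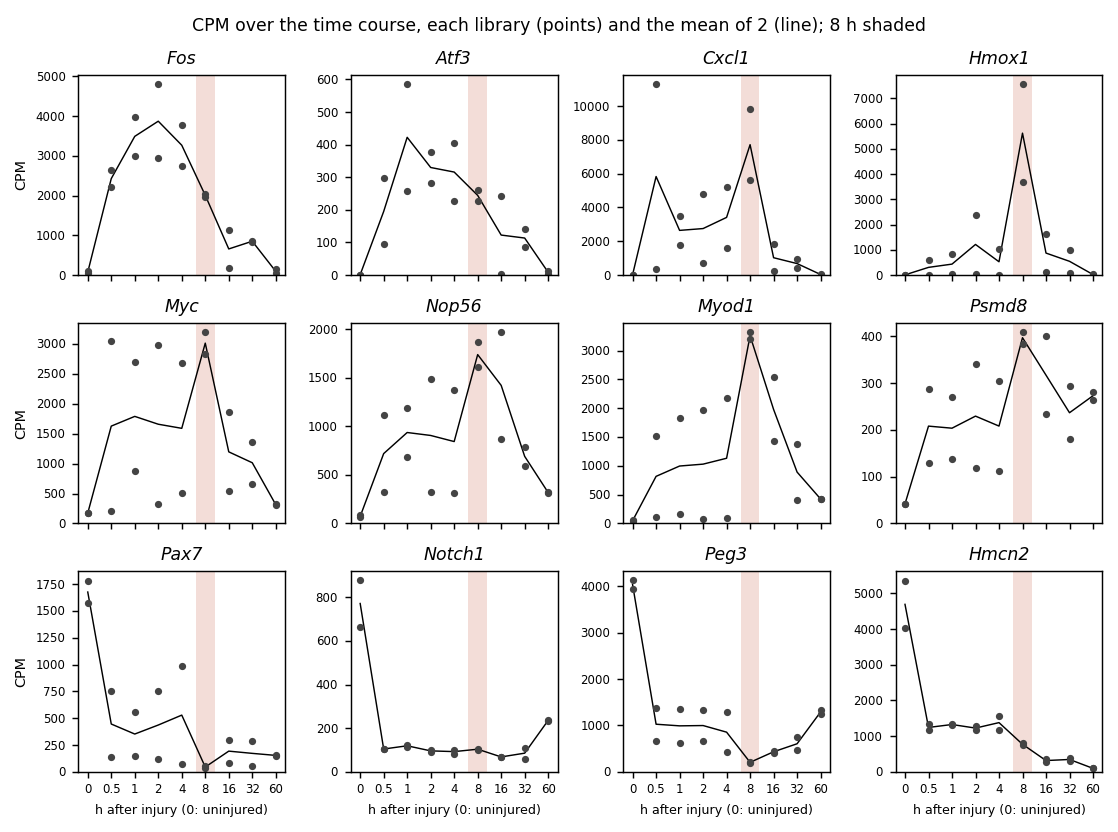
CPM of 12 named genes in each library (points) and the mean of 2 libraries (line) at 9 times from uninjured (0) to 60 h, evenly spaced on the axis and scaled over all 18 libraries, with 8 h shaded. The 2 libraries of 8 h lie close together for most genes shown, while those of 0.5 to 4 h lie far apart for Myod1, Myc and Pax7. Closeness at 8 h was known when the time was picked.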

How the data were processed

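Counts per gene were taken as the authors deposited them, whole numbers with no normalization. Per the submitters' processing notes, reads were processed with tools that include HISAT2 2.1.0 and StringTie 1.3.3, and also Trimmomatic 0.36 and SAMtools 1.3, on the mouse build mm10. The sources used here do not give the annotation release, the counting step or its use of strand, so reads of antisense or overlapping genes and of near-identical copies can be assigned to either. Per the labels' protocols, the RNA was polyadenylated RNA of fixed, sorted cells. Library totals, 13.5 to 36.8 M counts, set the counting error, which is small beside the spread between libraries for all but the lowest genes. Outside ribosomal RNA models and mitochondrial genes the counts were 25119863 and 34599314 at 8 h, against 6260826 and 12684306 in uninjured cells. Genes with no count in uninjured cells were thus read at lower depth there.

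From these counts, genes with low counts were removed (filterByExpr with its default minimum of 10 counts and total of 15), TMM factors scaled the libraries, and 8 h was compared with uninjured by edgeR's quasi-likelihood test on the 4 libraries (edgeR 4.0.16, R 4.3.3), with Benjamini-Hochberg adjustment over all genes tested and a threshold of 0.05. The comparison with 16 h used all 18 libraries of the time course. Other settings tried were DESeq2 1.42.0, RLE size factors, no filter, other sets of libraries, a replicate block, offsets by exon length or GC content, removal of ribosomal RNA models, and each library left out. Gene names, types, coordinates and lengths came from matching the deposited identifiers to the GENCODE M21 annotation, and promoters from RefSeq (both GRCm38.p6). On simulated data of this design the share of calls that were false was above the threshold, and most of the smallest changes were missed. Far fewer genes changed in the simulation than were called here, so its shares do not carry over to these calls.

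The gene lists were chosen with earlier results of these data known. The rule for named genes takes the 15 largest rises and falls called with 4 and with 18 libraries and at 20 CPM or more, the 10 called genes with most reads in each group, the 5 or fewer called members of each list that had the lowest adjusted p, and a panel. Another 108 list members were named after their values were seen. Some genes that the rule takes are not reported here. Floors are 3 counts over a group's libraries and, like intervals, cover counting error only, since the reads carry no molecular identifiers.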

Additional observations from a re-analysis of the deposited data

How the results depend on the processing

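The count of 11326 genes called between 8 h and uninjured cells lay between 9993 and 11323 with RLE size factors, DESeq2, no filter, 10 libraries, a replicate block, no ribosomal RNA models and offsets by length or GC content. It was 6756 with all 18 libraries, 5833 with a replicate block in that fit, and 7836 to 11387 with 1 of the 4 libraries left out, where a lone library is assumed to vary like the others. On the 4 libraries alone, leaving out 8 h library 1 gave 8016 and 8 h library 2 gave 7836. Leaving them out of all 18 libraries gave 2250 and 1986, and leaving out uninjured library 1 or 2 gave 2077 and 2628. Of 427 genes that the naming rule took or that were named besides it, 406 were called, all 406 kept their direction under every alternative run, and 108 of them passed the threshold under all of them. All 18 libraries ended 51 of these calls, a replicate block in that fit 74, DESeq2 3 and RLE size factors 0. Leaving 1 of the 4 libraries out of the 18-library fit ended more, those of Pax7, Myod1, Myc and Hk2 among them. Of 50 lists, 15 counts moved by over 1.5 times with all 18 libraries, given beside them, and 0 under the other alternatives run on lists. The 2 genes called between 8 h and 16 h became 1 with RLE size factors, 1102 with the 4 libraries of these times, 440 with DESeq2, 88 with no filter, 0 with a replicate block (2046 at an unadjusted p under 0.05) and 0 with 1 library left out (1029 to 2174), all by edgeR except where DESeq2 is named. Some genes that were not called changed sign. With offsets by GC content the log2 fold change was -0.12 for Pax3, -0.089 for Ezh2, -0.12 for Rbpj and 0.051 for Spry1, and with offsets by exon length it was -0.013 for Srf. With 1 of 4 libraries left out it was -0.22 to 0.028 for Spry1, -0.47 to 1.01 for Per2 and -6.81 to 0.52 for Cdk1. With all 18, it was 0.012 for Spry1 and -0.49 for Per2 without uninjured library 2, -0.080 for Per2 without 8 h library 2, and 0.52 for Cdk1 without uninjured library 1. The E-box share of ribosome biogenesis promoters was 2.63% in the 250 bases before the start, where all promoters held the E-box in 6.05%, the heat shock element core in 6.78%, the AP-1 site in 6.87% and the CRE in 1.62%. Same-numbered libraries of the groups share only a number. The correlation of their deviations across 18556 genes was 0.0039, and the block on the 4 libraries called 10494. The causes of these changes were not tested.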
